A study of Mus musculus with 10 samples.

Results

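The genes described here encode the late cornified envelope proteins and other structural proteins of the dead outer layer of the epidermis, in whole mouse skin treated with imiquimod, an agonist of the innate receptor TLR7 that induces psoriasis-like inflammation. They were taken as a list of 36 gene symbols, of which 35 were among the 17016 symbols of the deposited table, 13 of them Lce1 genes, 5 Lce3 genes and 17 other genes. Filaggrin, Flg, was not analysed here. Both groups were female mice of the inbred strain BALB/c, 10 to 11 weeks old, whose shaved backs received a 5% imiquimod cream daily for 5 days. In the quinpirole group, 5 libraries, the mice were also given the DRD2 (dopamine receptor) agonist quinpirole as 5 intraperitoneal injections over the same days, and the other group, also 5 libraries, received vehicle. Imiquimod was thus common to both groups, and untreated skin was not analysed here. The labels do not say that each library came from its own mouse, and the p-values therefore reflect only sample-to-sample spread, which may be technical.

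Keratinocytes that leave the basal layer build a cornified envelope under the plasma membrane, in which transglutaminases cross-link involucrin, loricrin, small proline-rich proteins and, late, the short Lce proteins. Inside the cell that it encloses, keratin filaments are packed by filaggrin and its relatives, which proteases then cut. In human skin, LCE3 genes are known to be induced in psoriasis and after injury, and LCE1 genes to be expressed in intact skin.

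Between 6763367 and 8361877 reads per library were assigned to genes, and 1 read was worth 0.119 to 0.146 CPM (the normalised read count). The 6 markers of skin (Krt5, Krt14, Krt1, Krt10, Col1a1 and Col3a1) each measured at least 227 CPM in every library. The libraries differed widely in hair shaft genes across both groups. The mean log2 level of the 36 such genes tested, of 37 present, was 0.51 to 6.15 in vehicle and 0.62 to 6.21 with quinpirole. Each of the 35 genes passed the filter for testing, which asked for 1 CPM in at least 5 libraries. By limma with Benjamini-Hochberg adjustment over 14548 genes, none of the 35 was called at an adjusted p of 0.05, where 0.0206% of all genes were. At an unadjusted p under 0.05 stood 24 of the 35 (16 higher and 8 lower), against 11.4% of all genes. By edgeR on reads recovered from the values none was called either, against 0.0344% of all genes, and 23 had an unadjusted p under 0.05. By DESeq2, 4 were called (Lce1k, Lce1m, Lce3a and Lce3b), where DESeq2 called 1.51% of all genes, 1.03% on the higher side and 0.474% on the lower. The groups did not overlap in 3 of the 35 (Lce1m, Flg2 and Lce3a), against 2.2% of all genes. The list was chosen with earlier results of these data known, so these shares are no test of it.

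In these libraries the 13 Lce1 genes had higher values with quinpirole and the 5 Lce3 genes lower values. The median log2 fold change was 0.83 over the Lce1 genes, with a range from 0.65 for Lce1f to 1.63 for Lce1m. Over the Lce3 genes it was -1.35, from -2.23 for Lce3a to -1.02 for Lce3c. The median over all 14548 genes was -0.0021. Each of the 13 Lce1 genes had an unadjusted p under 0.05 on the higher side, where 6.92% of all genes did, and each of the 5 Lce3 genes on the lower side, where 4.47% did. Genes of the same family varied together across libraries, so these counts are not of separate results. The limma adjusted p lay between 0.159 and 0.400 for the Lce1 genes and between 0.169 and 0.286 for the Lce3 genes, so no single gene passed. All fold changes were computed on log2(CPM + 1). In whole skin, fewer cells of a type and less RNA per cell cannot be told apart.

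**Figure D1:**
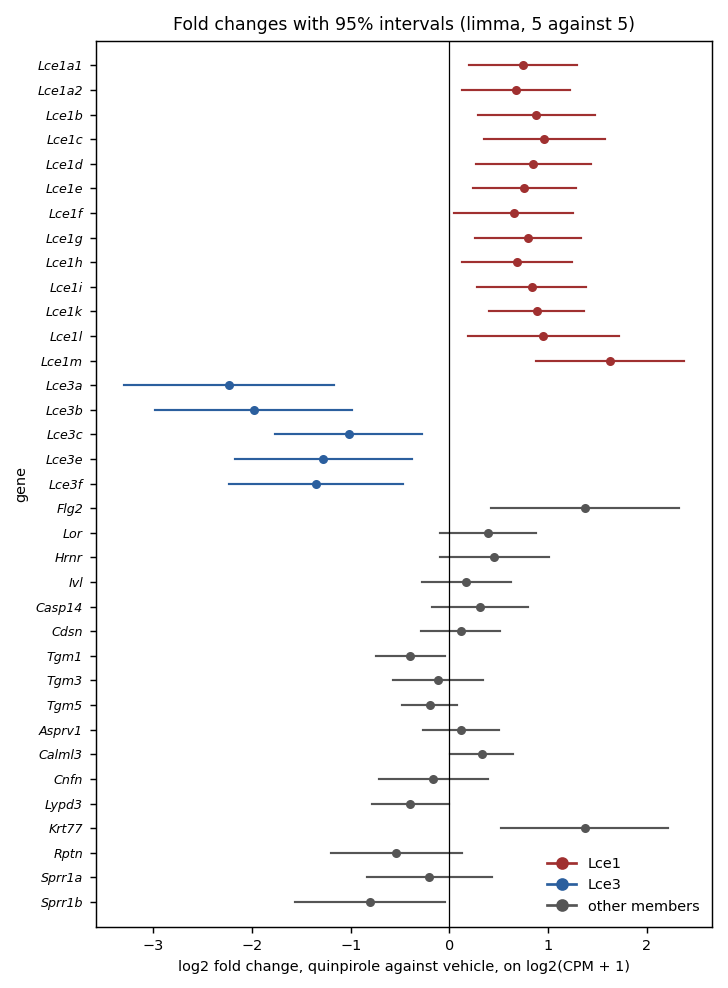
Log2 fold change of quinpirole against vehicle (x axis, on log2(CPM + 1)) for each of the 35 genes (y axis), with the 95% interval of the limma fit on 5 against 5 libraries. The 13 Lce1 genes lie at 0.65 to 1.63 and the 5 Lce3 genes at -2.23 to -1.02, while most other genes lie near 0 with intervals that cross it.

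On mm10 all 18 Lce genes lie on chromosome 3, and each has 2 exons in the GENCODE annotation. The Lce1 genes other than Lce1m form 1 block of 12 from Lce1a1 (start 92646535) to Lce1l (end 92851286). The Lce3 genes follow after 74.0 kb, from Lce3a (start 92925287) to Lce3f (end 92993426). Lce1m lies apart from the other Lce1 genes, on the minus strand from 93017810 to 93019060, 24.4 kb past the end of Lce3f and beside Crct1. It is also the Lce1 gene with the most distinct transcript. None of its 929 windows of 50 bases occurs in another Lce gene, while in the other Lce1 genes 9.12% to 25.4% of such windows do. In the Lce3 genes the shared part was 12.1% for Lce3b, 19.0% for Lce3a, and 48.0% for Lce3f, the highest. Reads of such parts can be divided between genes by the authors' counting, so levels of single genes other than Lce1m are uncertain to that extent, and no window was shared between an Lce1 and an Lce3 gene.

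Promoter windows from RefSeq (build GRCm38.p6, from 250 bases before to 50 bases after the annotated start) were found for 33 of the 35 genes. They are shown for the 2 genes of smallest p in each Lce family, which had opposite differences from neighbouring positions, and for Flg2, a filaggrin relative with the same direction as Lce1m. Capitals mark TATAAA or ATAAAA on the gene's strand and, on either strand, the AP-1 motif TGANTCA. The windows are chr3:93019012-93019311 (minus strand) for Lce1m, chr3:92807842-92808141 (minus) for Lce1k, chr3:92926181-92926480 (minus) for Lce3a, chr3:92932729-92933028 (plus) for Lce3b and chr3:93197023-93197322 (plus) for Flg2.
Lce1m: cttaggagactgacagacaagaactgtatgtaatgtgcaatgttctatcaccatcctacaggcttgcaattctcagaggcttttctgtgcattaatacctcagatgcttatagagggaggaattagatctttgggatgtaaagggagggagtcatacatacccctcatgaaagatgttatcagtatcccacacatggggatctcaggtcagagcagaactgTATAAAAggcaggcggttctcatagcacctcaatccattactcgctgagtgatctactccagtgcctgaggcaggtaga
Lce1k: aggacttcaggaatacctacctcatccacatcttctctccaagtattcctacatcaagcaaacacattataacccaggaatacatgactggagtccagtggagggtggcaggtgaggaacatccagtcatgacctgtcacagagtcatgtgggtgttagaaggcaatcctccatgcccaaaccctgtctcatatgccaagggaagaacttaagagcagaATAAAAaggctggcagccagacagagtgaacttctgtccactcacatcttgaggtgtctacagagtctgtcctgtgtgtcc
Lce3a: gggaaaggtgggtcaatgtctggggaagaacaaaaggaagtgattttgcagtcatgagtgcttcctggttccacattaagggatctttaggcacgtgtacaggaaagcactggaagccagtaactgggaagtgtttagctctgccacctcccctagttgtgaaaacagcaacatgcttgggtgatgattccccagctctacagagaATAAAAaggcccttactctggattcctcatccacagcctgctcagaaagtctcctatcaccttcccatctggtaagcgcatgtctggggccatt
Lce3b: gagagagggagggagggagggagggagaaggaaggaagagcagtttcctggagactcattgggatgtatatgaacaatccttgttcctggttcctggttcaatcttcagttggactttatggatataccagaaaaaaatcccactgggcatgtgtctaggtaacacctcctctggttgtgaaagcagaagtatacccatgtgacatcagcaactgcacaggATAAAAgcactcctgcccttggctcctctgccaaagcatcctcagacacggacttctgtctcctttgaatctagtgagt
Flg2: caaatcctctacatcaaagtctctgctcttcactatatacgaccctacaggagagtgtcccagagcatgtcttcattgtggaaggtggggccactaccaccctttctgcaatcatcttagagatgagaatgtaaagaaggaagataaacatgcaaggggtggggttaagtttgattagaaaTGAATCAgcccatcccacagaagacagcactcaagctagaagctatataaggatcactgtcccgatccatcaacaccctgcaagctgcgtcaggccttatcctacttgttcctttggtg
One of these TATA-like runs (the 2 motifs overlap in their shared letters) began 40 to 15 bases before the start in 11 of 12 Lce1 windows and 4 of 5 Lce3 windows, against 3.11% of the 32817 promoter windows of the genome. In Lce3a it began 44 bases before the start. TGANTCA was in 6 of the 16 windows of the other genes (Flg2, Ivl, Lor, Rptn, Sprr1a and Sprr1b), in none of the 12 Lce1 and none of the 5 Lce3 windows, and in 7.81% of all windows. A match describes these letters only, and most windows of both Lce families held the TATA-like run.

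Lce1m had the largest difference among the Lce1 genes. It measured 16.1, 54.3, 50.5, 28.5 and 55.9 CPM in vehicle replicates 1 to 5, and 95.4, 225, 100, 106 and 96.6 CPM in quinpirole replicates 1 to 5. The groups did not overlap, and the group means were 41.1 ± 17.8 and 125 ± 56.5 (SD, n = 5 per group; log2 fold change 1.63, SE 0.34, limma adjusted p = 0.159). This was the single Lce1 gene without overlap, where 1.34% of all genes had no overlap on the higher side. As a share of the summed CPM of the 13 Lce1 genes, Lce1m held 1.61% to 3.05% in vehicle and 3.23% to 4.57% with quinpirole, without overlap. Lce1m was singled out for the largest difference of the 13, so its larger share is not a separate result.

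The other Lce1 genes overlapped between the groups. Lce1k measured 30.0, 54.8, 43.9, 55.0 and 60.0 CPM in vehicle and 58.3, 135, 83.8, 90.2 and 89.6 with quinpirole (log2 fold change 0.88, SE 0.22, limma adjusted p = 0.201). Here 4 of 5 quinpirole libraries exceeded the highest vehicle library, and quinpirole replicate 1 lay just under it. Lce1c measured 103, 260, 176, 155 and 294 CPM in vehicle and 240, 560, 366, 366 and 339 with quinpirole (log2 fold change 0.96, SE 0.28, limma adjusted p = 0.237). Lce1b measured 113, 259, 188, 186 and 327 in vehicle and 261, 604, 370, 358 and 341 with quinpirole (0.88, SE 0.27, limma adjusted p = 0.256). In both, quinpirole replicate 1 lay inside the vehicle range and the other 4 quinpirole libraries above it. Lce1i measured 59.0, 108, 88.5, 89.0 and 141 CPM in vehicle and 109, 275, 152, 179 and 159 with quinpirole (0.83, SE 0.25, limma adjusted p = 0.245). Lce1g measured 90.0, 186, 127, 141 and 199 in vehicle and 159, 392, 242, 246 and 256 with quinpirole (0.79, SE 0.25, limma adjusted p = 0.256). The overlap came again from quinpirole replicate 1. The remaining Lce1 genes had log2 fold changes of 0.74 for Lce1a1, 0.67 for Lce1a2, 0.85 for Lce1d, 0.76 for Lce1e, 0.65 for Lce1f, 0.69 for Lce1h and 0.95 for Lce1l, and between 2 and 4 quinpirole libraries above the highest vehicle library.

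The Lce1 genes followed each other from library to library. Vehicle replicate 1 was the lowest of all 10 libraries in 13 of 13 genes and quinpirole replicate 2 the highest in 13 of 13. Within the groups, vehicle replicate 5 was the highest vehicle library in 13 of 13, and quinpirole replicate 1 the lowest quinpirole library in 12 of 13. Among the 35 genes, quinpirole replicate 1 was the lowest of its group in 30 and vehicle replicate 5 the highest of its group in 25. These are the libraries with the highest hair shaft list mean among the 10, 6.21, and the lowest, 0.51. Other libraries followed that order only in part. Quinpirole replicate 2, the highest in all Lce1 genes and the highest of its group in 16 of the 35, had a low mean, 0.64. Vehicle replicate 1, the lowest in all Lce1 genes, had a mean of 5.13, below vehicle replicates 2 (6.03) and 3 (6.15). Quinpirole replicate 4, at 0.62, was the highest of its group in 7 of the 35 genes. With the hair list mean added to the model the Lce1 median was 0.63 and the Lce3 median -1.44. Among the 7 libraries with a hair list mean over 2, a subset picked once the values had been seen, they were 0.75 and -1.07, and 13 of 13 Lce1 but 3 of 5 Lce3 genes had an unadjusted p under 0.05. Levels per kilobase of exon ranged in vehicle from 43.3 ± 18.7 CPM per kb for Lce1m to 449 ± 146 for Lce1a1 (SD, n = 5). With quinpirole, Lce1l was the lowest at 116 ± 56.4 CPM per kb, beside Lce1m at 131 ± 59.5, and these neighbours did not differ beyond their spread.

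**Figure D2:**
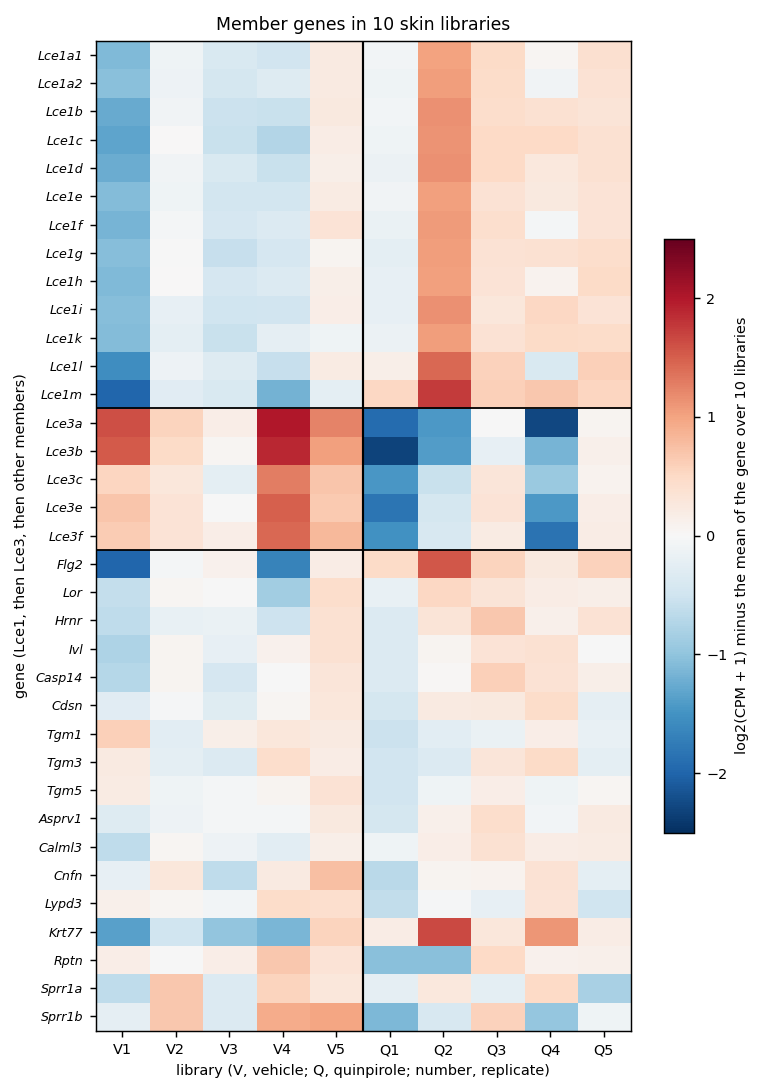
Each of the 35 genes (rows) in each of 10 libraries (columns, V vehicle and Q quinpirole with the replicate number), as log2(CPM + 1) minus the mean of the gene over the 10 libraries. Lce1 genes are lowest in V1 and highest in Q2, and Lce3 genes are highest in V4 and lowest in Q1 or Q4.

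Among the Lce3 genes, Lce3a and Lce3b had the largest differences. Lce3a measured 125, 59.8, 45.7, 166 and 96.3 CPM in vehicle replicates 1 to 5 and 9.99, 14.4, 39.9, 7.50 and 42.2 with quinpirole. Its groups did not overlap, though vehicle replicate 3 and quinpirole replicate 5 were close, and its mean was 98.7 ± 48.9 against 22.8 ± 16.9 (SD, n = 5 each; log2 fold change -2.23, SE 0.49, limma adjusted p = 0.169). On the lower side 0.859% of all genes had no overlap. Lce3b measured 166, 78.9, 58.0, 211 and 115 CPM in vehicle and 10.6, 20.7, 49.1, 24.5 and 61.5 with quinpirole, so that quinpirole replicate 5 alone lay above the lowest vehicle library (log2 fold change -1.98, SE 0.46, limma adjusted p = 0.182).

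Lce3c, Lce3e and Lce3f, which lie farther along the block, had smaller differences. Lce3f measured 183, 150, 133, 324 and 208 CPM in vehicle and 40.8, 89.4, 136, 32.0 and 135 with quinpirole (log2 fold change -1.35, SE 0.40, limma adjusted p = 0.239). Lce3e measured 136, 106, 82.9, 235 and 132 in vehicle and 22.8, 61.0, 106, 30.1 and 92.9 with quinpirole (-1.28, SE 0.41, limma adjusted p = 0.269). Lce3c measured 167, 140, 97.0, 280 and 186 in vehicle and 41.0, 77.8, 142, 59.8 and 122 with quinpirole (-1.02, SE 0.34, limma adjusted p = 0.286). In all 3 genes, quinpirole replicates 3 and 5 lay within the vehicle range and quinpirole replicates 1, 2 and 4 below it. Vehicle replicate 4 was the highest of the 10 libraries in 5 of 5 Lce3 genes, and vehicle replicate 3 the lowest vehicle library in 5 of 5. Lce3a held 11.0% to 16.1% of the summed CPM of the 5 Lce3 genes in vehicle and 4.87% to 9.31% with quinpirole, without overlap. It too was singled out for the largest difference of its family, so this is not a separate result.

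**Figure D3:**
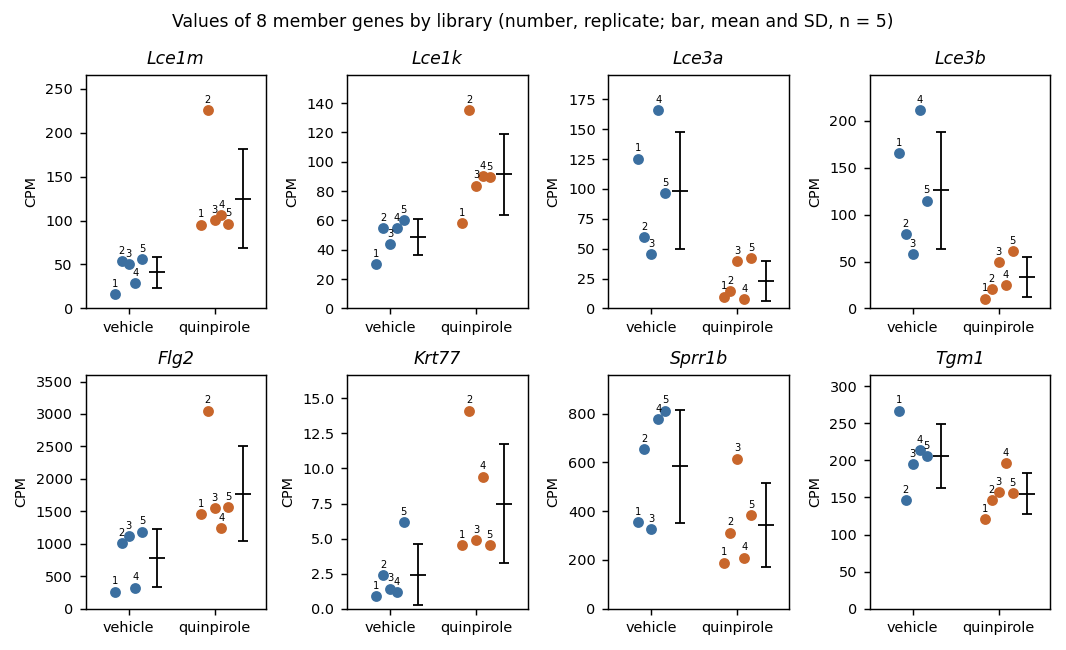
CPM (y axis) of 8 genes in each library of the vehicle and quinpirole groups (x axis), numbered by replicate, with the group mean and SD (n = 5). Lce1m, Lce3a and Flg2 show no overlap between the groups, and quinpirole replicate 2 stands far above its group in Lce1m (225 CPM) and Flg2 (3053 CPM).

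Setting the families against each other within each library removed the scale of the library. The sum of the 13 Lce1 genes was 999, 2146, 1655, 1618 and 2601 CPM in vehicle replicates 1 to 5 and 2135, 4936, 3097, 2715 and 2986 CPM with quinpirole. The sum of the 5 Lce3 genes was 777, 535, 416, 1217 and 737 in vehicle and 125, 263, 474, 154 and 454 with quinpirole. Each sum overlapped between the groups. The ratio of the Lce1 to the Lce3 sum did not, at 1.29, 4.01, 3.98, 1.33 and 3.53 in vehicle and 17.0, 18.7, 6.54, 17.6 and 6.58 with quinpirole. Quinpirole replicates 3 and 5 had the lower ratios of their group, and vehicle replicates 1 and 4 those of theirs. The families were grouped in this way with their directions known, so no test is given.

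**Figure D4:**
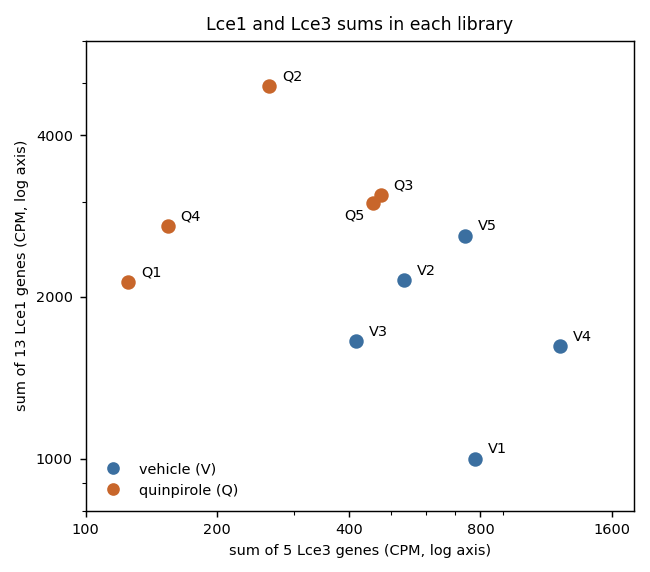
Sum of the 13 Lce1 genes (y axis, CPM, log scale) against the sum of the 5 Lce3 genes (x axis, CPM, log scale) in each library. Each axis overlaps between the groups, and the ratio of the sums separates them, at 6.54 to 18.7 in quinpirole and 1.29 to 4.01 in vehicle libraries.

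The family sums were also set against Krt10, the suprabasal keratin of the epidermis. Krt10 averaged 1445 ± 376 CPM (SD, n = 5) in vehicle libraries and 2271 ± 511 (SD, n = 5) in quinpirole libraries (log2 fold change 0.66, SE 0.22, limma adjusted p = 0.281). The Lce1 sum divided by Krt10 was 0.826 to 1.70 in vehicle and 0.999 to 1.78 with quinpirole, with wide overlap. The Lce3 sum divided by Krt10 was 0.263 to 1.28 in vehicle and 0.0567 to 0.219 with quinpirole, without overlap. Because Krt10 itself averaged higher with quinpirole, dividing by it lowers both ratios in that group. The Lce3 sum alone overlapped, so the separation depends in part on this choice of divisor, and no test is given. These ratios are not corrected for length and serve only to compare libraries.

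The positions of these genes set the opposite differences side by side. From Lor to Rptn lies a stretch of 1319 kb (chr3:92080271-93399442), a part of the epidermal differentiation complex cut at genes of the list. In it, 45 of 54 protein-coding genes were tested, 26 with higher and 19 with lower values with quinpirole. These counts are for the stretch, not for the whole complex. Sprr2a1 and Sprr2a2, both on the higher side, carry identical values in the table and are 1 measurement. Sprr2j-ps, on the lower side, has a pseudogene's symbol but is protein-coding in GENCODE and was counted here. The tested genes from Lce6a (log2 fold change 1.30, SE 0.32, limma adjusted p = 0.195) through the 12 clustered Lce1 genes had higher values, including Lce1j (0.52) and Kprp (0.58), which are not in the list. The 6 Lce3 genes tested, Lce3d at -1.22 among them, had lower values, and the next genes, Crct1 at 0.20 and Lce1m at 1.63, higher ones. On the other side of the Lce1 genes lie Sprr4 at 0.73, Sprr1a at -0.21 and Sprr1b at -0.81, and then the Sprr2 genes, of which Sprr2i had -2.42 (SE 0.34, limma adjusted p = 0.0505).

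**Figure D5:**
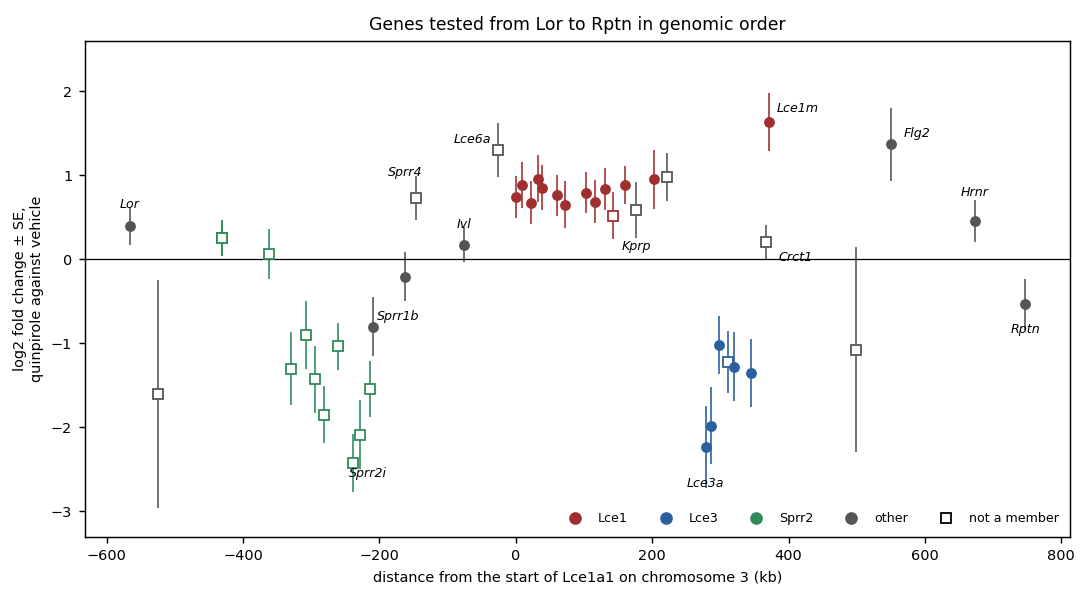
Log2 fold change with SE (y axis) of the 45 genes tested from Lor to Rptn by distance from the start of Lce1a1 (x axis, kb), filled circles for the 35-gene list and open squares for other genes. The Lce3 genes, at -2.23 to -1.02, lie between the Lce1 block and Lce1m at 1.63.

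The filaggrin relatives share a calcium-binding S100 domain and long repeats. Flg2, filaggrin-2, measured 265, 1007, 1120, 327 and 1190 CPM in vehicle and 1464, 3053, 1547, 1243 and 1566 CPM with quinpirole. The groups did not overlap (means 782 ± 448 and 1775 ± 726, SD, n = 5 each; log2 fold change 1.37, SE 0.44, limma adjusted p = 0.267), and vehicle replicates 1 and 4 were far below the other vehicle libraries. Hrnr, hornerin, had the highest counts of the 35 genes, with 3426, 4676, 4721, 3722 and 6930 CPM in vehicle and 4182, 6700, 8452, 5800 and 6885 with quinpirole, and overlapped widely (log2 fold change 0.46, SE 0.25, limma adjusted p = 0.525). Rptn, repetin, measured 2193, 1945, 2206, 3147 and 2494 CPM in vehicle and 948, 953, 2771, 2128 and 2150 with quinpirole (-0.54, SE 0.30, limma adjusted p = 0.530). Its lower mean with quinpirole came from replicates 1 and 2, and the other 3 quinpirole libraries lay within the vehicle range. Without either of those replicates the difference was -0.34.

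Among the other precursors of the envelope, 1 of 5 had an unadjusted p under 0.05. This was Sprr1b, a small proline-rich precursor, which measured 354, 654, 326, 779 and 813 CPM in vehicle and 189, 313, 615, 209 and 382 with quinpirole (log2 fold change -0.81, SE 0.35, limma adjusted p = 0.408). In Sprr1b, 3 of the quinpirole libraries lay below the lowest vehicle library and none above the highest. Its neighbour Sprr1a had -0.21 (SE 0.29). Lor, which encodes loricrin, measured 125, 195, 187, 103 and 258 CPM in vehicle and 167, 273, 237, 214 and 208 with quinpirole (0.39, SE 0.22, limma adjusted p = 0.539). Ivl, which encodes involucrin, measured 181, 327, 270, 333 and 406 in vehicle and 245, 326, 392, 407 and 309 with quinpirole (0.17, SE 0.21, 95% interval -0.28 to 0.62). Both overlapped between the groups, with vehicle replicates 1 and 4 lowest for Lor, and without vehicle replicate 4 Lor had 0.22. Cnfn, cornifelin, had -0.16 (SE 0.25).

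The transglutaminases, which cross-link the envelope, had lower means with quinpirole, and none was called. Tgm1, the membrane-bound enzyme of keratinocytes, measured 267, 146, 195, 214 and 206 CPM in vehicle and 120, 146, 157, 196 and 156 with quinpirole (log2 fold change -0.40, SE 0.16, limma adjusted p = 0.374). Vehicle replicates 2 and 3 lay within the quinpirole range and the other 3 vehicle libraries above it. Tgm5 measured 135, 109, 113, 123 and 151 in vehicle and 83.5, 108, 131, 108 and 121 with quinpirole (-0.20, SE 0.13, 95% interval -0.48 to 0.08). Tgm3, which is also expressed in the hair follicle, measured 465, 336, 312, 536 and 453 in vehicle and 283, 311, 489, 554 and 333 with quinpirole (-0.11, SE 0.21, 95% interval -0.57 to 0.34). The intervals of both Tgm3 and Tgm5 include 0.

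Both proteases that act on profilaggrin or filaggrin overlapped between the groups. Casp14, caspase-14, measured 1120, 1905, 1358, 1803 and 2245 CPM in vehicle and 1432, 1853, 2770, 2349 and 2011 with quinpirole (log2 fold change 0.31, SE 0.22, 95% interval -0.17 to 0.80). Asprv1, a retroviral-like aspartic protease, measured 1522, 1723, 1827, 1835 and 2253 in vehicle and 1400, 2076, 2572, 1812 and 2208 with quinpirole (0.12, SE 0.18, 95% interval -0.27 to 0.50). Without vehicle replicate 1, Casp14 had 0.18. The lowest library of each was a vehicle library for Casp14 and a quinpirole library for Asprv1.

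Among the keratin, adhesion and calcium-binding genes, Krt77, a type II keratin, was low in all libraries. It measured 0.880, 2.42, 1.44, 1.19 and 6.15 CPM in vehicle and 4.52, 14.1, 4.91, 9.41 and 4.52 with quinpirole, from 88 reads over the vehicle and 280 over the quinpirole libraries. Vehicle replicate 5 exceeded 3 quinpirole libraries, and the other 4 vehicle libraries lay below all 5 (log2 fold change 1.37, SE 0.39, limma adjusted p = 0.232). Because of its low level the fold change depended on the pseudocount, with 0.73 for a pseudocount of 5 and 1.78 for 0.1. Lypd3, a membrane-anchored protein of stratified epithelium, measured 487, 457, 425, 611 and 592 CPM in vehicle and 291, 437, 385, 562 and 315 with quinpirole (-0.40, SE 0.18, limma adjusted p = 0.424). Calml3, a calmodulin-like protein, measured 257, 416, 367, 335 and 446 in vehicle and 370, 449, 521, 454 and 463 with quinpirole (0.33, SE 0.15, limma adjusted p = 0.431). For Calml3, 4 of 5 quinpirole libraries exceeded the highest vehicle library, and for Lypd3 3 of 5 lay below the lowest. Without vehicle replicate 1, Calml3 had 0.21 (limma unadjusted p = 0.123). Cdsn, which encodes the adhesive protein corneodesmosin, had 0.11 (SE 0.18, 95% interval -0.29 to 0.51).

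Other genes of cornification, none of them called in the main limma fit, stood on both sides. The nearest to the threshold, Sprr2i, was called in 11 of the 24 alternatives, edgeR and DESeq2 among them. Of 30 tested genes in a list of further envelope proteins, 4 had an unadjusted p under 0.05 on the higher side and 10 on the lower, and the 4 of smallest p, leaving out Sprr2j-ps for its pseudogene symbol, were Sprr2i, Sprr2f, Sprr2g and Sprr2k with log2 fold changes of -2.42, -1.85, -1.71 and -1.55. The list of filaggrin processing and protease genes had 2 such genes higher and 5 lower of 22. Cst6, cystatin M/E, an inhibitor of legumain and cathepsins in the envelope's assembly, measured 887 ± 183 against 1656 ± 578 CPM, without overlap (SD, n = 5 per group; log2 fold change 0.86, SE 0.21, limma adjusted p = 0.192). Hal, the histidine ammonia-lyase that turns filaggrin-derived histidine into urocanic acid, had 0.84 (SE 0.22). The kallikrein Klk13 had -1.12 (SE 0.22, limma adjusted p = 0.142) and Blmh, bleomycin hydrolase, which degrades filaggrin further, -0.62 (SE 0.22). Of 17 suprabasal keratin and desmosome genes, 1 was higher (Krt10) and 1 lower at an unadjusted p under 0.05, a share near the 11.4% of all genes (6.92% higher and 4.47% lower). The lower gene was the plakophilin Pkp3, at -0.38 (SE 0.10). Dsg1b at -0.39 (SE 0.19) and Krt23 at 0.24 (SE 0.12) came next. Of 38 regulators of differentiation, 3 were higher and 2 lower at that p, also near the background, and the 4 of smallest p were Pparg at 0.45, Hopx at -0.54, Ahr at 0.44 and Pou2f3 at 0.47. Medians of these 4 lists lay between -0.07 and -0.01.

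Genes of stressed keratinocytes had lower values with quinpirole in 13 of 15 cases (median log2 fold change -0.73), with 9 at an unadjusted p under 0.05, on the same side as Lce3. S100a7a had -2.11, Defb3 -1.95, S100a9 -1.05 and S100a8 -0.98. The 3 libraries with the lowest mean of this list, quinpirole replicates 1, 2 and 4, were also the 3 with the lowest Lce3 sum, and vehicle replicate 4 had the highest value of both. Neutrophil markers were lower in 9 of 11 (median -0.62, 3 at an unadjusted p under 0.05), with Cd177 at 0 in at least 1 library. Their summed levels were 7893 to 15253 CPM in vehicle and 2899 to 8610 with quinpirole. Most of these sums came from S100a8 and S100a9, which are in both lists. S100a9 averaged 6491 CPM in vehicle and 3271 with quinpirole, and S100a8 4744 and 2534. Both were among the 3 genes at that p, so the sums say little of the other neutrophil markers. Hair shaft markers were lower in 36 of 36 (median -1.57, none at an unadjusted p under 0.05), with summed levels of 31.9 to 7972 and 39.6 to 7807 CPM and 23 of 37 markers at 0 in at least 1 library. Melanocyte markers were lower in 8 of 9 (median -0.85, none at an unadjusted p under 0.05), with sums of 50.6 to 516 and 49.6 to 328 CPM and none at 0 in any library. Skeletal muscle markers were higher in 24 of 25 (median 1.10, 17 at an unadjusted p under 0.05), with sums of 1720 to 6694 and 3675 to 17805 CPM and only Tnnt1 at 0 in any library. Sebaceous gland markers were higher in 16 of 18 (median 0.63, 12 at an unadjusted p under 0.05), with sums of 3512 to 6492 and 5606 to 8950 CPM, and with Plin5 and Gal at 0 in at least 1 library. Basal keratinocyte markers had a median of -0.01, 5 of 13 higher, and sums of 11983 to 19675 and 10858 to 17497 CPM. The part of sebaceous gland, melanocyte, neutrophil and stressed keratinocyte RNA in the Lce differences was not tested. With the muscle list mean added to the model the medians were 0.79 for Lce1 and -1.18 for Lce3, and with the basal keratinocyte mean 0.83 and -1.33.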

How the data were processed

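Total RNA of whole skin was depleted of ribosomal RNA and made into directional libraries, per the labels' protocols. For the upstream steps, the tools RSEM 1.3.0, Trimmomatic 0.38, edgeR and Bowtie2 are listed per the submitters' processing notes, without their roles, as is build mm10, and the annotation is not given in the sources used here. The deposited table holds a normalised signal per gene. Every column consisted of whole multiples of 1 step, 100% of its values (tolerance 1e-06 of a read), and they equalled CPM on TMM effective library sizes of the recovered reads. No other column was present. No gene had fewer than 10 reads in all.

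Values were tested as log2(CPM + 1) with limma 3.58.1 (mean-variance trend, no covariates, two-sided, R 4.3.3) for genes at 1 CPM or more in at least 5 libraries, with p-values adjusted over 14548 genes and called at 0.05. The steps were tested on simulated data. Members and lists were chosen with earlier results of these data known. Values in every library are given for up to 6 Lce1 genes, 5 Lce3 genes and 3 genes of each other role by smallest p, and fold changes for up to 4 genes of each other list. Lce1j, Lce3d, Lce6a, Kprp, Crct1 and Sprr4 were named for their position after their values were seen. Positions came from GENCODE M21 on mm10. Alternatives covered pseudocounts, filters, variance model, scaling, edgeR 4.0.16, DESeq2 1.42.0, covariates, the replicate number as a block and leaving out each library. No 2 libraries of a group were repeat sequencing of the same library (smallest chi-square per gene 6.55 within a group, about 1 under sampling noise). Separate libraries from the same mouse would not be detected this way. Figures used matplotlib 3.10.9.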

Additional observations from a re-analysis of the deposited data

Results flagged for a closer look

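In quinpirole replicate 2, Lce1m measured 225 CPM, against 95.4 to 106 in the other 4 quinpirole libraries, and Flg2 measured 3053 CPM, against 1243 to 1566. In each case the gap to the nearest library was most of the range of the group (0.918 and 0.822 of it, where Dixon's limit for 5 samples is 0.71). Of 70 groups of 5 values looked at, these were the 2 that passed that limit, and chance passes about 1 in 20. Without quinpirole replicate 2 the log2 fold change was 1.39 for Lce1m and 1.15 for Flg2.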

How the results depend on the processing

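The 13 Lce1 and 5 Lce3 genes kept their direction in each of 24 alternatives (1 of them, the libraries rich in hair genes, chosen after the data were examined). Of the other 17 genes, 13 kept theirs wherever they were tested, Krt77 in 23 alternatives. The Lce1 median lay between 0.63 and 0.99 and the Lce3 median between -1.57 and -1.07. None of the 35 genes was called in any alternative but DESeq2, which called 4, with adjusted p of 0.0138 for Lce1k, 0.000974 for Lce1m and 0.0214 for Lce3a and Lce3b. The 4 genes that turned sign were Ivl (-0.0069 with the muscle covariate, -0.00071 to 0.29 leaving out each library), Cdsn (-0.034 with the hair and -0.070 with the muscle covariate), Asprv1 (-0.0028 with the muscle covariate) and Cnfn (-0.34 to 0.0025 leaving out each library). Leaving out 1 library moved the fold change by over 1.5 times in 11 of those 17 genes and in 0 of the 18 Lce genes. This measure is relative, so small shifts pass it in genes near 0. Cdsn ranged from 0.01 to 0.24, and Lce3a, which did not pass, from -2.53 to -1.94. The fits without 1 library left 9 to 13 Lce1 genes (9 without quinpirole replicate 2) and 5 Lce3 genes at an unadjusted p under 0.05. The 3 lower genes among the other 17 numbered 0 without vehicle replicate 4 or quinpirole replicate 1. The median of the other 17 genes, 0.11, ranged from -0.07 to 0.24.

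Genes called among all tested numbered 3, and 5 with a pseudocount of 0.1, 6 without a filter, 5 with a filter at 5 CPM (which left out Krt77), 9 without the variance trend, 5 without normalisation factors, 5 by edgeR, 219 by DESeq2, 14 with the hair covariate, 7 with the basal keratinocyte covariate and 0 with the muscle covariate (limma, 1259 at an unadjusted p under 0.05). Leaving out each library gave 0 to 10, the most without vehicle replicate 5. With the replicate number as a block 0 were called (limma, 1576 at an unadjusted p under 0.05). Same-numbered libraries correlated at -0.238 to 0.220, over 0.1 in 3 of 5 pairs, and 1 of 5 correlated best with its own number, so the numbers were not taken to pair the samples. The cause of these shifts was not tested. Depth limits Krt77 most, with 368 reads in all.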
